A study of Mus musculus with 12 samples.

Results

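The genes of 5 transcription factors that drive epithelial-mesenchymal transition (EMT), Snai1, Snai2, Twist1, Zeb1 and Zeb2, were described by the histone mark H3K27ac and by binding sites of GLI1. The members were taken as the mm10 gene bodies with 50000 bp on each side, and every H3K27ac interval and GLI1 site that shared at least 1 bp with such a window was kept. This gave 65 control and 62 dox H3K27ac intervals, 127 of the 143900 in both lists, and 6 of the 2605 GLI1 sites. The member genes were 5 of 20376 protein-coding genes analysed.

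The cells were cardiac progenitors derived from mouse embryonic stem cells, collected on day 6 of differentiation. All 12 samples came from the same line, GLI1-FTA, of the strain A2Lox.cre, in which doxycycline turns on a tagged GLI1. Control cells were untreated, and dox cells received doxycycline at 500 ng/ml for 24 hours, from day 5 to day 6. Each condition had 2 inputs, 2 GLI1 pulldowns on streptavidin beads and 2 H3K27ac immunoprecipitations with an antibody, 6 groups of 2 samples in all. The labels name no other clone and no line without the tagged factor, so an effect of doxycycline itself cannot be told apart from one of GLI1. A mixed culture was profiled in bulk, so fewer cells with a mark and less of the mark per cell cannot be told apart.

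EMT is the change by which epithelial cells loosen their junctions, lose polarity and become migratory. It recurs in heart development, at gastrulation, in the formation of the endocardial cushions and in the epicardium. The SNAIL proteins (Snai1, Snai2) and the ZEB proteins are zinc finger factors that bind E-boxes and repress epithelial genes such as Cdh1, and Twist1 is a basic helix-loop-helix factor that binds E-boxes as a dimer. GLI1 is the activating zinc finger factor at the end of the Hedgehog pathway. H3K27ac marks active promoters and enhancers, and says nothing directly of transcript level.

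Values came from 1 deposited list per condition, each pooled by the authors over 2 replicates, so no spread between replicates was at hand, no difference between conditions was tested, and no p-value is given. The fold enrichment of a summit is the authors' ratio of its read pileup to the local background. Control and dox intervals that overlapped by 1 bp or more were joined. A joined region is called dox-only or control-only where its intervals came from a single list, and shared where both lists contributed. Its log2 ratio, where shared, is that of the highest dox to the highest control value, from which the genome-wide median of such ratios (−0.13) was subtracted. Regions with a ratio of at least 1 are called higher, and those with −1 or lower are called lower. The dox list was the deeper by 1.28 times, judged by the uniform background recovered from it, and its deeper pool can call weaker intervals. Pileups recovered from the deposited values gave exact 95% intervals for single summits, which cover counting error only. Pileup ratios were taken per depth and centred on their own median over all shared regions (−0.27), which raises each of them.

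The sequences shown first are upstream ends of 2 members and 1 of the 6 GLI1 sites; the sequences of the other 5 sites, the strongest included, were not analysed here. The 250 bases upstream of the annotated starts of Snai1 (chr2:167537945-167538194, plus strand) and Twist1 (chr12:33957421-33957670, plus strand) are from RefSeq, build GRCm38.p6, and so is the GLI1 site 15.0 kb from the Snai1 start (chr2:167553189-167553289, printed on the plus strand). RefSeq promoter entries matched 3 of the 5 members, Snai1, Twist1 and Zeb2. Capitals mark an E-box in the Snai1 sequence and the closest match to a Gli motif in the GLI1 site, and Twist1 is shown for contrast.
Snai1 upstream: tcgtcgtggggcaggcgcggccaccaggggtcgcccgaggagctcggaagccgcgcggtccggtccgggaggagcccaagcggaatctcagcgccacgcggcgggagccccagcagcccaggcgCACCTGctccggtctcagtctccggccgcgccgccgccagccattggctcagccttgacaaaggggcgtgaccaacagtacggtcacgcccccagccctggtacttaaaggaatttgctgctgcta
Twist1 upstream: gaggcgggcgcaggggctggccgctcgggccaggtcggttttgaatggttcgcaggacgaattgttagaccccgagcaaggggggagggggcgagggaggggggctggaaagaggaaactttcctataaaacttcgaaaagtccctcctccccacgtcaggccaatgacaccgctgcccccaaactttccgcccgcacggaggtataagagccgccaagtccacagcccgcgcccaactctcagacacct
GLI1 site near Snai1: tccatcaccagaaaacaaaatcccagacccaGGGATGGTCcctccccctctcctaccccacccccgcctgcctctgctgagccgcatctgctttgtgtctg

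The Snai1 sequence held 1 E-box of the form CACCTG, at position −126 from the annotated start, the form that SNAIL and ZEB proteins prefer. That form lay in 17.2% of the 32851 RefSeq promoter windows of 250 bp, and any E-box (CANNTG, of which CACCTG is a case) in 66.2%. For Zeb2, 1 of 4 promoter entries was searched (chr2:45117443-45117692, minus strand). Neither this sequence nor that of Twist1 held an E-box of either form. The Gli consensus GACCACCCA, found in 0.225% of the windows, and its shorter core CCACCCA, contained in it and found in 8.11%, were in none of the 3 members' sequences. A GC box (CCGCCC, in 32.7% of windows) was found in Twist1 alone of the 3. All searches covered both strands. In the GLI1 site the closest match to GACCACCCA was GACCATCCC on the minus strand, with 2 mismatches. A match as close was found in 25.8% of the promoter windows. Those windows are 250 bp and the site is 101 bp, so this share overstates the one for a stretch of the site's length. Which Gli motif the authors searched is not given in the sources used here. The 250 bases upstream of Snai1 were covered over 0 bp by control intervals and over 32 bp by dox intervals, while those of Twist1 and Zeb2 lay wholly inside intervals of both lists.

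Over the 5 windows together, Snai1 and Snai2 stood apart in opposite directions. The 73 merged regions comprised 36 shared, 17 dox-only and 20 control-only regions. Dox-only regions made up 23.3% of them, against 35.5% of all regions in the genome, and control-only regions 27.4%, against 27.1%. Of the 36 shared regions 3 were higher and 1 was lower, where 6.78% of all shared regions were higher and 8.31% lower. The median log2 ratio was −0.04, with 17 regions above 0 and 19 below, and −0.17 before centring. Snai1 alone had more dox-only than control-only regions, as did 39.8% of all genes, and the other 4 members had more control-only regions, as did 28.5% of genes. Without Snai1, the windows held 6 dox-only and 19 control-only regions of 53, and with intervals of −log10 q 10 or more alone, 5 and 8. By member, these last counts were 0 and 1 for Snai2, 1 and 2 for Twist1, and 4 and 5 for Zeb2. Zeb1 had 0 and 0, so its lean to control rested on 1 weak region.

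**Figure D1:**
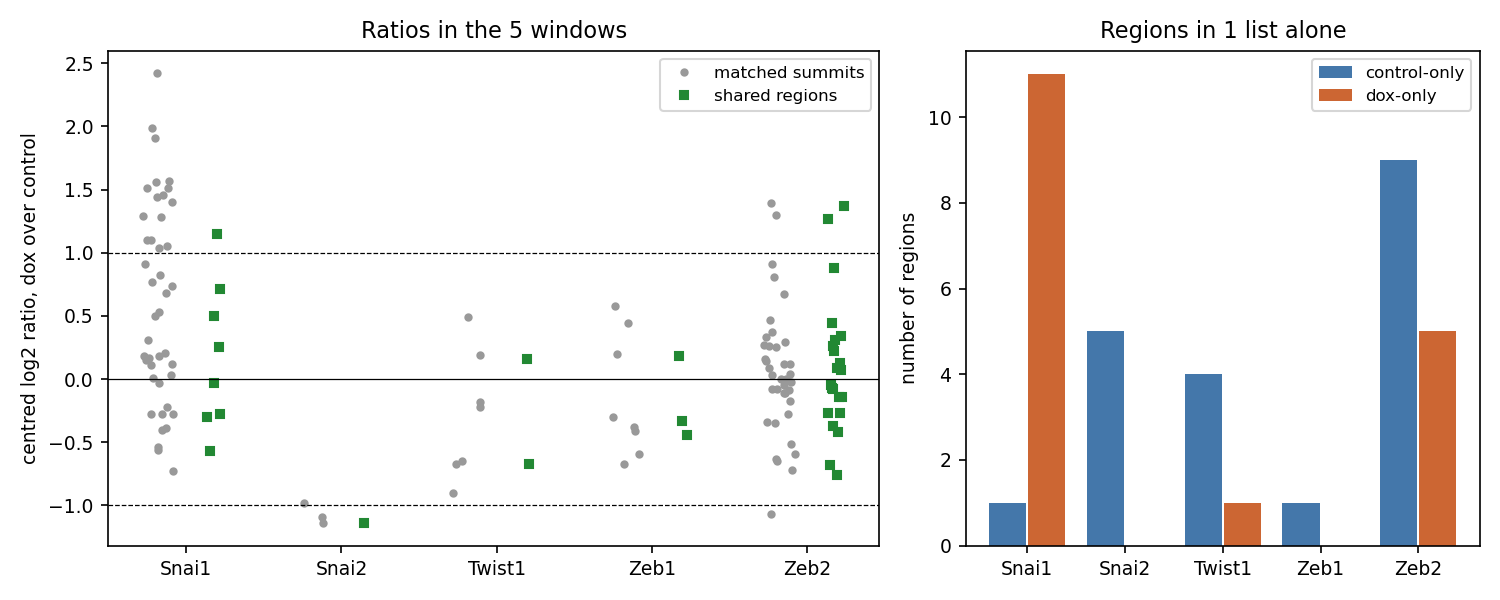
Left, centred log2 ratios of fold enrichment, dox divided by control, in each window, for shared regions (squares) and for pairs of matched summits (circles), with dashed lines at 1 and −1; right, the number of regions found in 1 list alone. Snai1 had 11 dox-only regions and 1 control-only region, and Snai2 had 5 control-only and none in dox alone.

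Snai1, which encodes the SNAIL repressor first expressed as cells leave an epithelium, lies on chromosome 2 (167538195 to 167542814). Its window held 15 control and 21 dox intervals, covering 28.1 kb and 40.0 kb. They formed 8 shared, 11 dox-only and 1 control-only regions, and 3.63% of all genes had 11 or more dox-only regions. After the dox list had been scaled to the control depth, 10 dox-only regions were left. None of the 11 lay within 10000 bp of the gene. The ratios of the shared regions ran from −0.57 to 1.15, with a median of 0.11. Most dox-only regions were weak. Their fold enrichments ranged from 2.59 to 15.8, and 4 of the 11 reached a −log10 q of 10 or more.

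The region at the Snai1 gene ends (chr2:167538163-167545712) covered the whole gene and the flank beyond its 3′ end. Its strongest summit lay 5.6 kb from the start, outside the gene, where the enrichment was 37.0-fold in control cells and 47.7-fold in dox cells. The log2 ratio was 0.50, at the 80.1th percentile of the 9761 genes with a gene-end region in both lists. The pileups at this summit were 181 and 221 reads, a centred log2 ratio of 0.19 (95% interval −0.10 to 0.49). On read counts alone the difference was thus within counting error, and its sign rests on the centring (−0.27). In level, Snai1 stood at the 96.4th percentile of these genes in control and the 99.4th in dox cells.

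Inside the gene the difference was larger than at that summit. Summits of both lists that were each other's nearest and within 250 bp were paired, an analysis added after the data had been seen, and centred on all 71152 pairs. Of the 8 pairs within the Snai1 gene, 7 were higher, where 7.93% of all pairs were higher and 9.52% lower. At 0.3 kb from the start, enrichment was 5.59-fold without and 14.3-fold with doxycycline, a log2 ratio of 1.51. At 1.9 kb the values were 6.45 and 23.0 (1.99), and at 2.6 kb 10.5 and 27.7 (1.56). The remaining pair, at 3.9 kb, had 7.95 and 12.6 (0.82). These 8 pairs share 1 region and overlapping reads and are not independent. Their median was 1.51 by fold enrichment and 1.25 by pileup per depth, and in all 8 the 95% interval of the pileup ratio lay above 0. Both medians differ in the local background, which the pileup ratio leaves out, and in the centre subtracted, −0.16 for fold enrichment and −0.27 for pileups. The 3 pairs just beyond the 3′ end, between 5.0 kb and 6.3 kb, had ratios of 0.68, 0.53 and 0.01. The next pair of that flank, at 7.2 kb, was weak but higher, with 4.24 and 7.84 (1.05). By pileup its interval included 0 (0.53, −0.25 to 1.34). Over the whole Snai1 window there were 43 pairs, of which 16 were higher and none was lower, with a median of 0.53. By pileup, the interval lay above 0 in 18 of them and below 0 in 3, and the median was 0.27. Zeb2 had 38 pairs with 2 higher and 1 lower, Zeb1 had 8 and Twist1 7 with none past 1 in either direction, and Snai2 had 3, of which 2 were lower.

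**Figure D2:**
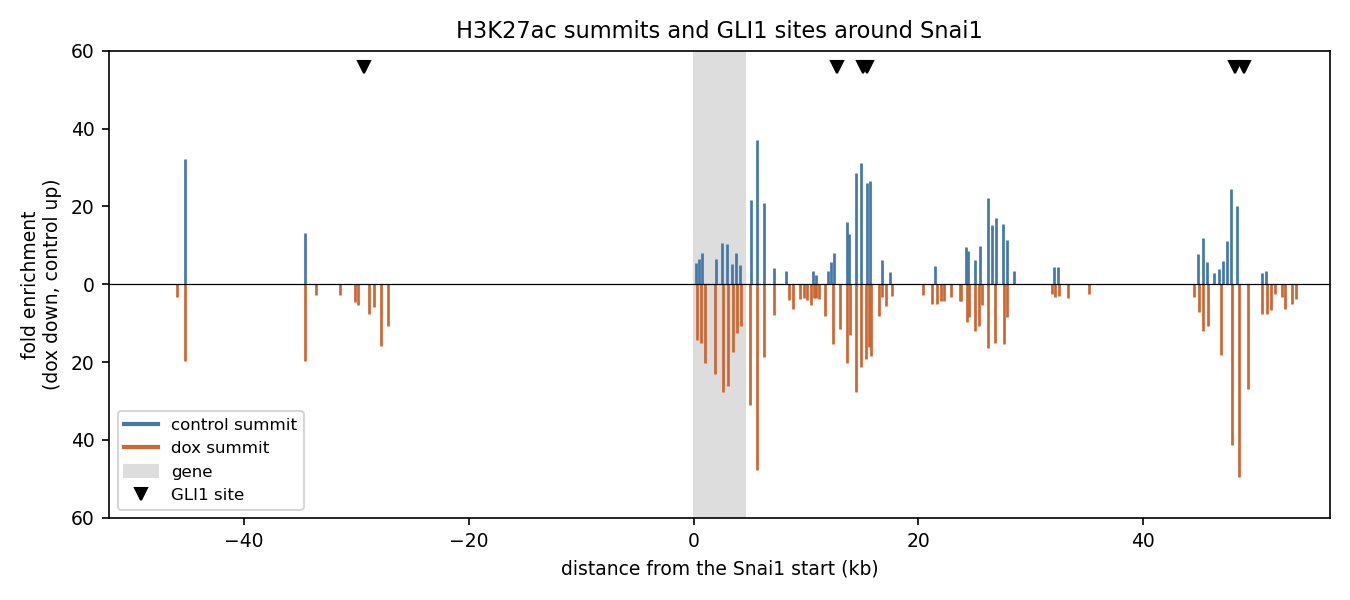
Fold enrichment of each H3K27ac summit (control upward, dox downward, in the same linear units) by distance from the Snai1 start in kb, with the gene shaded and GLI1 sites as triangles. Within the gene the dox summits are the taller, at 14.3 to 27.7 for the 3 pairs named in the text against 5.59 to 10.5, and the summit at 5.6 kb stands at 37.0 and 47.7.

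All 6 GLI1 sites of the member windows lay around Snai1. Of all genes, 13.4% had a site within 50000 bp and 0.0491% had at least 6. Those with 6 or more included Ptch1 (10), Gpc3 (7), and Aff3, Exoc2, Gse1, Slit3, Snai1, Sufu and Trabd2b (6 each). Ptch1, the Hedgehog receptor, and Sufu, an inhibitor of GLI factors, belong to the Hedgehog pathway. None of the 6 sites lay within the Snai1 gene. The nearest was 8058 bp from it, so in a window of 10000 bp 1 site was left. All 6 sites lay in a dox interval and 5 in a control interval, where 75.0% and 25.0% of all sites did so. The 6 sites fell in 3 merged regions, with 3, 2 and 1 sites, so they are not independent and no interval is given for these shares.

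The strongest site, 49.0 kb from the Snai1 start (chr2:167587143-167587243), had a −log10 q of 517 and ranked 2 of 2605, after one of 589. It lay within the long non-coding RNA genes Gm11476 and Gm31619, and the nearest protein-coding gene was Ube2v1, 20446 bp away. The gene it acts on is not shown by its position. The weakest of the 6, 48.2 kb from the start (chr2:167586333-167586433), had a −log10 q of 8.78 and shared its H3K27ac region. That region (chr2:167582447-167590042) went from 24.5-fold enrichment in control cells to 49.6-fold in dox cells, a ratio of 1.15 on the log2 scale, the highest in the Snai1 window; with the width-weighted mean it was 0.86, short of 1. Its pileups were 109 and 240, a centred log2 ratio of 1.05 (0.71 to 1.39). At 47.0 kb a weak control summit of 3.82 was paired with one of 18.2 in dox cells, the widest pair of the window (2.42; by pileup 1.64, 1.08 to 2.24). The gene ends of Ube2v1, which encodes a ubiquitin-conjugating enzyme variant, had 31.2 in control and 29.9 in dox cells (0.07).

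The second group of sites lay between Snai1 and that region, in a region of 9937 bp (chr2:167546129-167556065) with a ratio near 0 (31.1 and 27.7, −0.03). It held sites at 12.7 kb (−log10 q of 62.8, rank 605), 15.0 kb (18, rank 1990) and 15.4 kb (35.9, rank 1138). Values beside the sites went in opposite directions. The strongest summits within 500 bp of the site at 12.7 kb had 7.98 in control and 15.3 in dox cells. Their pileups were 35 and 121 (centred log2 ratio 1.70, 1.14 to 2.28). The dox summit nearest that site was another, at 13.0 kb, with 11.4. The summits nearest the site at 15.4 kb had 26.0 and 19.1, and by pileup the ratio was −0.53 (−0.93 to −0.13). The site at 15.0 kb, whose sequence is printed above, lay just upstream of Gm11476, and the summits beside it had 31.1 and 21.2, but by pileup 0.10 (−0.24 to 0.45). A highest value per region hid these local differences.

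The remaining site lay on the other side of Snai1, at −29.4 kb (chr2:167508792-167508892), within Rnf114, a ubiquitin ligase gene, with a −log10 q of 32.5 (rank 1251). It was the one site outside control intervals. Its dox-only region (chr2:167508745-167511469) reached a fold enrichment of 15.8, the strongest dox-only region of all 5 windows, and the dox summit within 500 bp of the site had 7.53. The lowest ratio of the window lay at the shared ends of Spata2 and Rnf114 (32.1 in control, 19.7 in dox; −0.57), where pileups of 122 and 120 gave a centred log2 ratio of −0.12 (−0.49 to 0.26). The single control-only region, 28.3 kb from the Snai1 start, had 3.35.

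**Figure D3:**
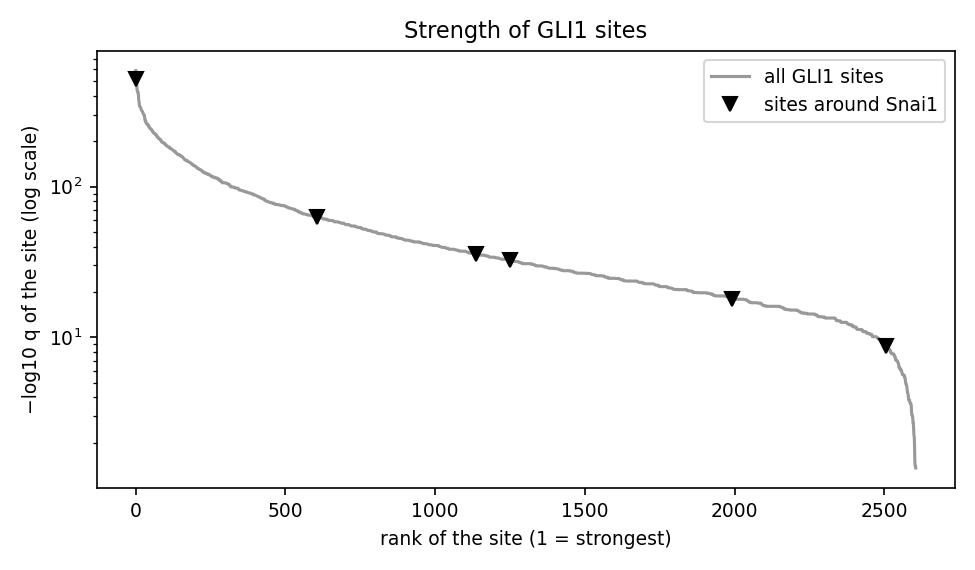
The −log10 q (log axis) of all 2605 GLI1 sites by rank, with the 6 sites around Snai1 as triangles. They run from rank 2, with 517, to rank 2507, with 8.78.

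Snai2 encodes SLUG, the SNAIL paralogue best known from neural crest and endocardial cushion cells, and lies on chromosome 16 (14705852 to 14709395). It had the lowest acetylation ratio of the members. The region across its lower-coordinate end (chr16:14704031-14706479) was enriched 11.6-fold in control cells and 4.83-fold in dox cells. This is a log2 ratio of −1.14, 2.20-fold lower, at the 1.34th percentile of genes with a region in both lists. Of those genes 2.05% had a ratio of −1 or lower and 3.77% one of at least 1. The pileups were 55 and 32, a centred log2 ratio of −0.87 (−1.55 to −0.22). The interval lay below 0, and the central value, which centring raised, was short of the −1 used as the limit here. With the width-weighted mean of fold enrichments the ratio was −0.97.

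The rest of the Snai2 window went the same way, including a second region at that gene end, in control alone (3.26). It held 6 control intervals covering 7.21 kb and 1 dox interval covering 1.38 kb. All 5 other regions were control-only, and 1.79% of genes had none in dox alone and at least 5 in control alone. The strongest of them, 4.8 kb to 7.4 kb from the lower-coordinate end, had a fold enrichment of 8.06 and a −log10 q of 21.8, and the others had 3.26 to 4.96. With intervals of a −log10 q of at least 10 alone, 1 of the 5 was left. The 3 pairs of matched summits had ratios of −0.98, −1.09 and −1.14. The nearest GLI1 site was 1472 kb away.

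Twist1, a factor of cranial mesenchyme and of the cushions of the heart valves, lies on chromosome 12 (33957671 to 33959831). At its gene ends (chr12:33956572-33960334) the mark was enriched 22.5-fold in control cells and 22.9-fold in dox cells (log2 ratio 0.16), and the pileups of 85 and 105 gave 0.21 (−0.21 to 0.64). The difference was within counting error. The summit 0.5 kb before the start had 17.1 in control and 9.64 in dox cells (−0.67; by pileup −0.68, −1.24 to −0.13), and this interval overlaps that of the strongest summit. With the width-weighted mean in place of the highest value, the gene-end ratio was −0.28.

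Around Twist1 there were 4 control-only regions and 1 dox-only region. With intervals of −log10 q 10 or more alone there were 2 and 1. Besides the gene-end region there was 1 shared region, 8.8 kb to 10.0 kb from the start (6.42 and 3.67, −0.67), and 4 control-only regions, the strongest of them at 6.67 on the upstream side. The only dox-only region, 28.9 kb to 30.3 kb from the start, had a fold enrichment of 10.4 and a −log10 q of 33.3. No GLI1 site lay in it. The nearest site was 92.4 kb from the gene, with a −log10 q of 54.0. The neighbouring gene Ferd3l, of the same helix-loop-helix family, had no region at its ends in either list.

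Zeb1, a zinc finger and homeodomain repressor on chromosome 18 (5591327 to 5775468), had 3 shared and 1 control-only region across a window of 284142 bp. The region within 1000 bp of its lower-coordinate end, which it shares with the long non-coding RNA gene Gm10125, had 12.8 in control and 13.2 in dox cells (0.18), with pileups of 48 and 60 (0.23, −0.34 to 0.81). A weaker region beside it had 5.22 and 3.51 (−0.44). The farthest, 227.8 kb from that end and beyond the gene, had 13.6 and 9.89 (−0.33). The control-only region, inside the gene, had 3.92. No region of the Zeb1 window reached 1 in either direction, and the nearest GLI1 site was 647 kb away.

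Zeb2, the paralogue that also takes part in neural crest formation, lies on the minus strand of chromosome 2 (44983512 to 45117442) and had the most intervals of the members, in a window of 233931 bp. It held 34 control and 33 dox intervals, in 22 shared, 5 dox-only and 9 control-only regions. The ratios of the shared regions ran from −0.76 to 1.37, with a median of 0.01, 11 above 0 and 11 below. At the promoter side (chr2:45115624-45118001) the mark was enriched 19.9-fold in control cells and 19.0-fold in dox cells (0.07), with pileups of 88 and 89 (−0.08, −0.52 to 0.36).

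The strongest Zeb2 region was inside the gene, within 10.0 kb of its start, and overlapped the antisense gene Zeb2os. It had 31.4 in control and 38.9 in dox cells (0.44; by pileup 0.34, 0.00 to 0.67). Both higher regions were weak in control cells. One, within 3.2 kb of the start, had 3.12 and 7.35 (1.37), with pileups of 13 and 33 (1.25, 0.29 to 2.30). The other, within 48.2 kb of the start, had 2.62 and 5.78 (1.27), with 13 and 27 (0.96, −0.04 to 2.04). The lowest ratio, −0.76, fell on a region with 5.93 and 3.20, and its interval by pileup included 0 (−1.33 to 0.57). The strongest dox-only region had 7.19 and the strongest control-only region 7.58. The nearest GLI1 site was 310 kb away.

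**Figure D4:**
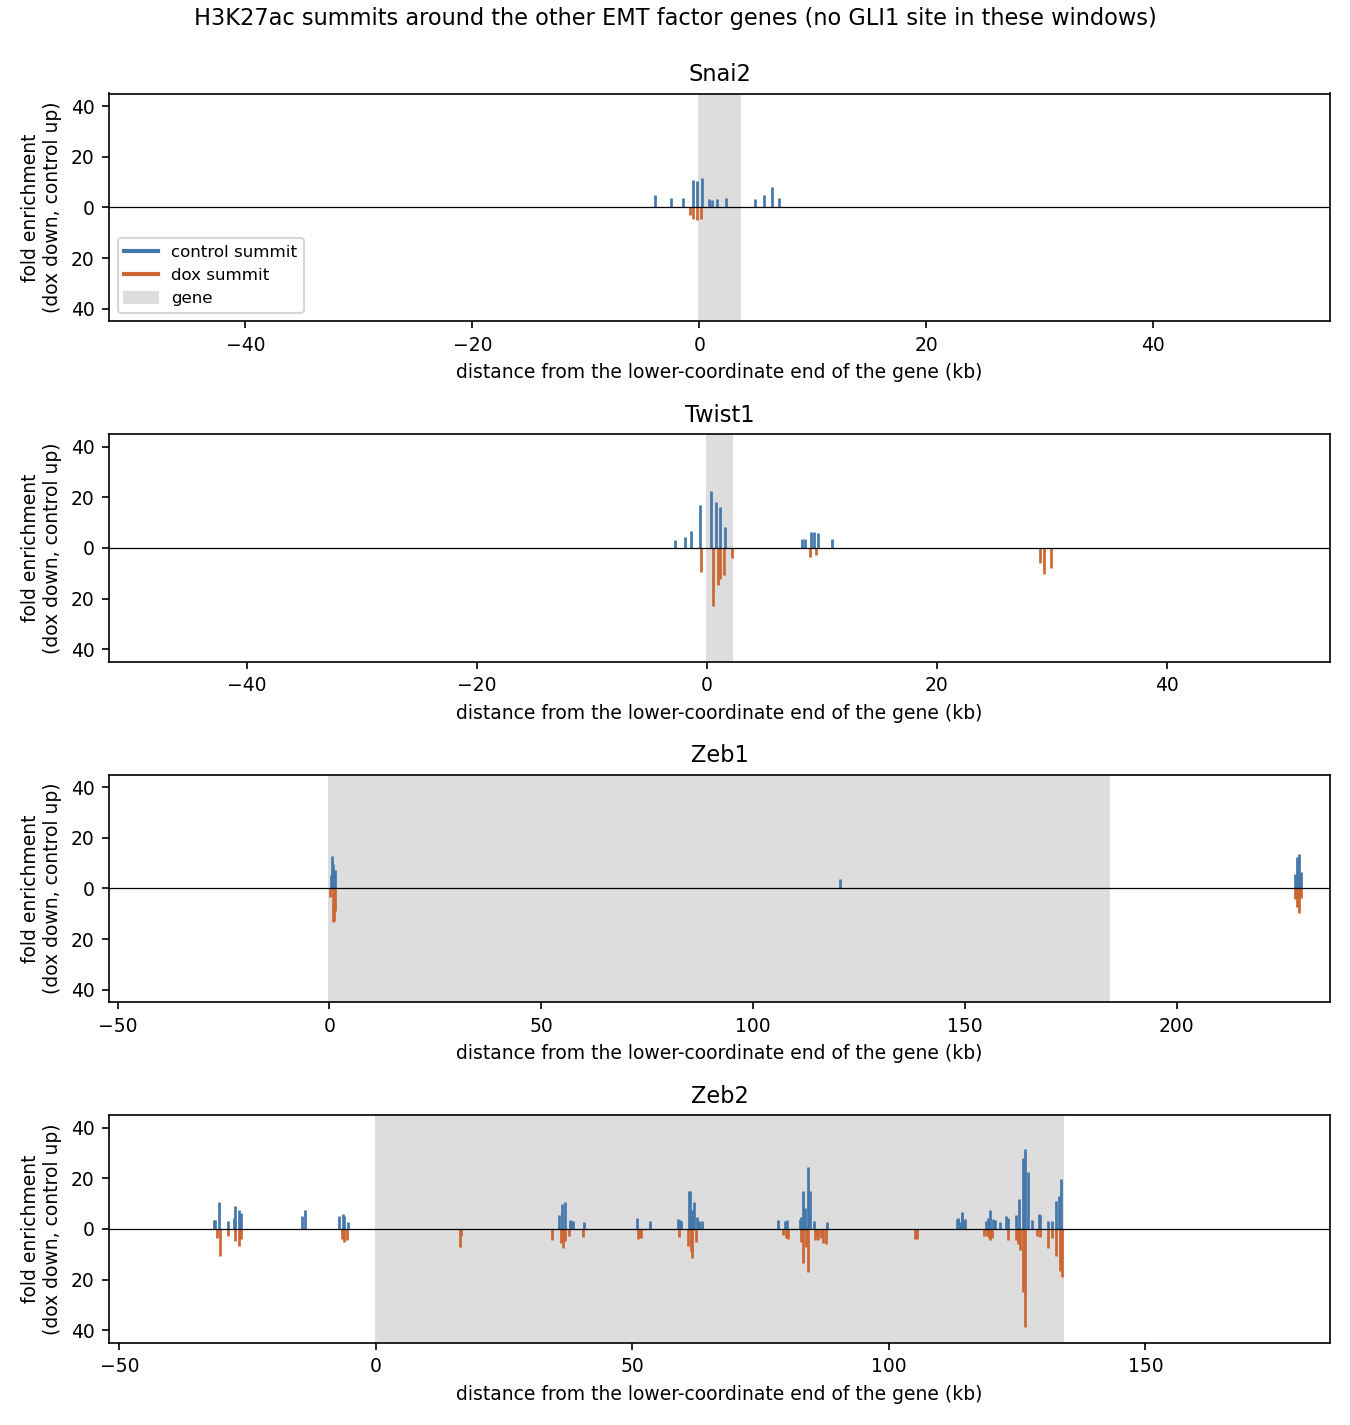
Fold enrichment of each H3K27ac summit (control upward, dox downward) around Snai2, Twist1, Zeb1 and Zeb2, by distance in kb from the lower-coordinate end of each gene, which for Zeb2, on the minus strand, is its 3′ end. At Snai2 the control summits reach 11.6 and the dox summits 4.83, and at Zeb2 the tallest summits stand at 31.4 and 38.9.

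Set side by side, the 5 gene-end levels had the same order in both conditions. Snai1 was the highest (37.0 and 47.7), then Twist1 (22.5 and 22.9), Zeb2 (19.9 and 19.0) and Zeb1 (12.8 and 13.2). The Snai1 values are those of the summit 5.6 kb from its start, outside the gene. Inside the Snai1 gene, summits reached 10.5 in control cells, below the gene-end values of the other 4 members. In dox cells they reached 27.7, above those gene-end values. Summits inside the Zeb2 gene, away from its ends, reached 31.4 and 38.9, above those inside Snai1 in both conditions. Snai2 was the lowest in both conditions, close to Zeb1 in control cells (11.6) and farther below it in dox cells (4.83). Without replicates it cannot be said which neighbours in this order differ. All 5 had a gene-end region in both lists, as did 47.9% of genes, while 2.96% of genes had one in dox alone and 2.21% in control alone. The median gene-end ratio of all genes was 0.14, so the values of Twist1 (0.16), Zeb1 (0.18) and Zeb2 (0.07) were near the middle of the genome.

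**Figure D5:**
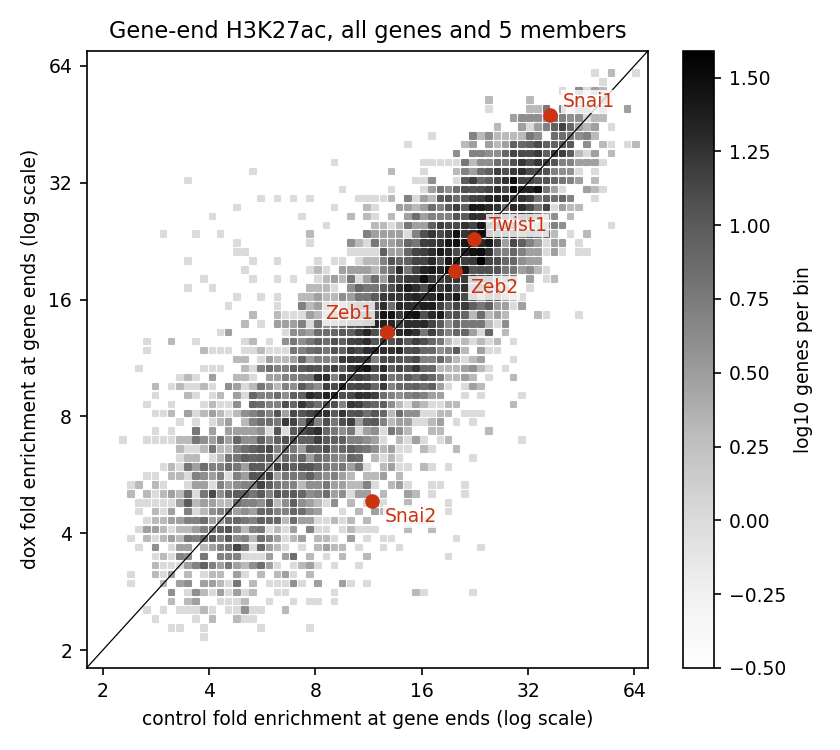
Dox against control fold enrichment at gene ends (log axes), with all genes binned in grey and the 5 members in red. Snai2 lies well below the diagonal (11.6 and 4.83), Snai1 stands in the upper corner (37.0 and 47.7), and the other 3 lie near the diagonal. The Snai1 values are those of a summit 5.6 kb from its start, outside the gene.

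The genes most like each member were found by the distance over 3 values, the control and dox log2 fold enrichment at gene ends and the number of GLI1 sites, among 9760 genes. For Snai1 they were Trim8 (37.6 and 44.7, 5 sites), R3hdm2 and Unc5b. For Snai2 they were Tbx3 (11.6 and 4.72), a T-box gene of the developing heart and limb, Col16a1 and Ces1b. Among the genes nearest to Twist1 were Elavl1 and Ccl25. Zeb1 was nearest to Brms1l, Etfbkmt and Wdr89, and Zeb2 to Foxo4, Gm614 and Reps1. None of the genes named for these 4 had a site.

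The other genes of the EMT programme were read from 4 lists, each gene at its ends. Of 9 further EMT factors, 5 had a region in both lists, and all 5 were above 0 once centred, with a median of 0.69. A region in both lists was found at 47.9% of all genes, and of those genes 63.4% were above 0, with a median of 0.14; before centring Tcf3 (38.4 and 38.3) was not. Foxc2, a forkhead gene of mesenchyme and vessels with 4 GLI1 sites, had 3.57 in control and 17.5 in dox cells (2.42). Tcf4, an E protein gene, had 19.5 and 35.2 (0.99), and Tcf3, another E protein gene, was the lowest at 0.13. Prrx1, a mesenchymal homeobox gene, had a region in control alone (2.80), and Snai3, Gsc and Klf8 had none.

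Of 16 genes of inducing signals, 13 had a region in both lists, as did 47.9% of all genes. Their median was 0.23 beside 0.14 over all genes, with 9 above 0 and 4 below, where 63.4% of all such genes were above 0. Notch1 (12.3 and 11.8) and Tgfbr2 (10.6 in both lists to 3 digits) were above 0 through centring alone. Higher were Pdgfra, a PDGF receptor gene (2.62 and 5.14, 1.11), whose values came from different regions, and the TGF-beta ligand gene Tgfb3 (8.22 and 15.3, 1.02). The lowest was another ligand gene, Tgfb1 (25.5 and 13.4, −0.79). Smad3, a transducer of TGF-beta signals with 5 GLI1 sites, had 20.2 and 28.9 (0.65). Bmp2 had a region in control alone (9.14), Hgf in dox alone (2.82) and Met in neither.

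Of 12 mesenchymal effector genes, 11 had a region in both lists, as did 47.9% of all genes. Of the 11, 5 were above 0 and 6 below, where 63.4% of all genes with a region in both lists were above 0. The median of −0.07 was that of Col1a2 (4.35 and 3.78), a collagen gene whose values came from different regions. Cdh11, the mesenchymal cadherin-11 gene, was the only higher one (9.99 and 26.1, 1.52), and Cdh2, the N-cadherin gene, was the lowest (32.3 and 19.7, −0.58). Vim, the gene of vimentin, had 32.4 and 34.6 (0.23). Lox had no region at its ends.

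Of 19 epithelial genes, 5 had a region in both lists, 13 in neither and Cldn4, a claudin gene, in dox alone (3.20). The 13 included Cdh1, the E-cadherin gene and classical target of these factors, and Epcam, so no ratio could be given where repression would be looked for first. The 5 had a median of −0.32 beside 0.14 over all genes, from the keratin gene Krt8 (−0.62) to Dsp, the desmoplakin gene (0.85). Of the 5, 1 was above 0 and 4 below, where 63.4% of all genes with a region in both lists were above 0.

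The label of the cells was read against marker genes in the same way. Over all genes, 47.9% had a region at gene ends in both lists, 2.96% in dox alone and 2.21% in control alone. Of 9 cardiac progenitor genes, 4 had a region at gene ends in both lists: Isl1 (20.2 and 21.0, 0.19), Tbx20 (17.3 and 12.6, −0.32), Hand2 (24.5 and 10.8, −1.05) and Tnnt2 (10.4 and 3.74, −1.35). Myl7 had one in control alone (3.35), and Nkx2-5, Gata4, Mef2c and Tbx5 had none at their ends. None of 6 neural and neural crest genes had a region, which covers Sox10, Foxd3 and Tfap2a. Of 5 pluripotency genes 2 had one, Sox2 (7.70 and 7.99) and Nanog (12.8 and 7.87). Of 5 endoderm genes Foxa2 had one, in dox alone (34.0). Of 6 endothelial and blood genes, 2 had a region in both lists, Pecam1 (11.7 and 11.2) and Tek (3.39 and 5.19), and 3 in dox alone, Tal1 (4.75), Cdh5 (3.13) and Kdr (2.82). The share of these cell types in the differences at the members was not tested.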

How the data were processed

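In all, 3 lists were used: H3K27ac intervals of control and of dox cells, and GLI1 sites of dox cells. The build was mm10, and the tools named in the submitters' processing notes, without their roles, are MACS2 2.1.1, Bowtie2 2.3.2 and SAMtools 1.5. The deposited fold enrichment (a ratio), −log10 p and −log10 q per summit are the authors' values, called on pooled replicates. The GLI1 score is read as a deposited −log10 q; per the deposited name, sites were replicated and held a Gli motif. Lists of the control pulldown and inputs were not analysed here.

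Pileups that return the deposited ratio and −log10 p were found for 100.00% of summits in both lists (tolerance 0.01); library totals are unknown. Genes came from a GRCm38.p6 RefSeq table without strand or exons, so gene ends are 1000 bp around either end. The 1511 of 21887 protein-coding genes with an end in a stretch where the lists' running peak numbers skip were not analysed; no member window held such a stretch. The merging and the ratio were tested on simulated data. Named in the text are all members, per window the gene-end regions, regions with a GLI1 site, and the strongest and most extreme ones, and per list genes past 1 or in 1 list alone, with the highest and lowest; other genes were named after their values had been seen. Members and lists were chosen with earlier results of these data known. Python 3.11.15, pandas 2.3.3 and scipy 1.17.1 were used.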

Additional observations from a re-analysis of the deposited data

How the results depend on the processing

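No paired analysis was possible because each condition was deposited as 1 pooled list, and for the same reason no replicate could be left out. A ratio counts as moved when it changed by more than its counting interval's half-width, and a count when it changed by more than 1.5 times. Of 141 recomputed values 24 moved: 8 of the 58 for gene-end ratios and totals over members, and 16 of the 83 others. The gene-end ratio of Snai1 was 0.96 with the width-weighted mean and 0.19 by pileups without local background, and Twist1 had −0.28 with the width-weighted mean. Held to intervals of −log10 q 10 or more, the members together had 9 dox-only and 8 control-only regions, Snai1 having 4 and 0. In windows of 10000 bp there were 5 dox-only regions, all at Zeb2, and 1 GLI1 site, which lay in a dox interval (1 of 1); Snai1 had 0 dox-only and 0 control-only regions there, against 17 and 7 in windows of 100000 bp, where Twist1 had 1 GLI1 site. Over 7 alternatives the ratio of Snai2 ran from −1.27 to −0.87, of Snai1 from 0.19 to 0.96, of Twist1 from −0.28 to 0.21, of Zeb1 from 0.04 to 0.37 and of Zeb2 from −0.08 to 0.44. Past 1 in size in the values reported, Snai2 came short of it with the width-weighted mean (−0.97) and by pileups (−0.87), and the region with the strongest GLI1 site with the width-weighted mean (0.86). Held to 100 bp, 5 summit pairs in Snai1 were left, and all 5 were higher. The counts without Snai1 were recomputed after the data had been seen.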

Other observations

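The miR-200 family is known to repress Zeb1 and Zeb2 and to be repressed by them in turn. Its 5 hairpins were looked up after the data had been seen. The mature sequences, from RefSeq (GRCm38.p6), fall into 2 seed groups, with the seed (bases 2 to 8) in capitals.
miR-200b-3p: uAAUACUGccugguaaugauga
miR-200c-3p: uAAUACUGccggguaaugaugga
miR-429-3p: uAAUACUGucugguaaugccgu
miR-200a-3p: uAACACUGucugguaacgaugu
miR-141-3p: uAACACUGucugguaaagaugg

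No H3K27ac region of either list lay within 5000 bp of Mir200a, Mir200b or Mir429 on chromosome 4, or of Mir200c on chromosome 6. Within 5000 bp of Mir141, the neighbour of Mir200c, lay 1 shared region, enriched 16.4-fold in control cells and 19.0-fold in dox cells. Both hairpins lie close together (starts at 124717914 and 124718322). The region must therefore lie near the edge of the 5000 bp, and it does not set Mir141 apart from Mir200c. The region's overlap with other genes was not examined.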
